A study of Mus musculus with 4 samples.

Results

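The lysosomal cathepsins are 10 mouse protease genes, Ctsa, Ctsb, Ctsc, Ctsd, Ctsg, Ctsh, Ctsk, Ctsl, Ctss and Ctsz, chosen by gene symbol out of 55359 genes measured. Each symbol matched a single gene. Poly(A) RNA was sequenced from cultured cells labelled as mouse female germline stem cells, with ovary as the tissue, kept in a medium with serum, epidermal growth factor, basic fibroblast growth factor, leukemia inhibitory factor and glial cell line-derived neurotrophic factor. The design of the series names cells given celastrol, a plant triterpenoid, and control cells at 12 h, in triplicate, yet 4 libraries are analysed here and their labels, numbered 01, 02, 21 and 22, do not say which received it. Every value below therefore belongs to a single library, no library stands for a condition, and no test between conditions was made. The sources used here name neither the strain and age of the donor mice nor the passage of the cells.

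Most cathepsins are made as inactive precursors, tagged with mannose 6-phosphate in the Golgi, carried to lysosomes and activated there by acid and by other proteases. Most are cysteine proteases, while cathepsin D is an aspartic protease and cathepsins A and G are serine enzymes. In the mouse ovary cathepsin L is known from the granulosa cells of follicles close to ovulation. Leakage of cathepsin B from damaged lysosomes is known as a trigger of the NLRP3 inflammasome in macrophages. Protease activity, protein amount and lysosome integrity were not measured here.

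The libraries held 12339636, 13039541, 12388380 and 12850347 counts. Every pair of libraries differed by more than sampling noise. The mean chi-square per gene was 3.21 between 01 and 02, 3.03 between 21 and 22 and 18.2 to 19.6 between the other pairs. Counting noise alone gives a mean of about 1 and a lower median. The medians were 1.23, 1.01 and 3.13 to 3.36 in the same order, so a part of the genes raised the means. Only genes with at least 20 counts over the pair were used. Of 10 germ cell markers, 9 were under 1 FPKM (counts scaled to gene length and to the library's total) in every library, and Ddx4, Dazl and Pou5f1 had at most 4 counts in any. Dppa3, Nanos3, Mael and Figla had no count, so the exception, Ifitm3, a gene that many cell types use, was the sole germ cell marker at that level or above. Because the RNA came from bulk cultures, fewer cells of a type and less RNA per cell cannot be told apart.

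The start regions of 4 cathepsins whose levels differed most between libraries are shown first, since these genes are the ones the results turn on. Each window runs from 250 bases before to 50 bases after the start site in RefSeq's GRCm38.p6 annotation, 5′ to 3′ on the gene's own strand. Capitals mark any match to the E-box core CACGTG, found in many lysosomal gene promoters, to the antioxidant response element core TGACNNNGC, to the AP-1 motif TGANTCA or to the ETS factor core GAGGAA, each searched on both strands. The windows are chr7:142387778-142388077 on the minus strand for Ctsd, chr13:64370471-64370770 on the minus strand for Ctsl, chr2:164833523-164833822 on the plus strand for Ctsa, which has a second window, and chr14:56102525-56102824 on the minus strand for Ctsg.
Ctsd: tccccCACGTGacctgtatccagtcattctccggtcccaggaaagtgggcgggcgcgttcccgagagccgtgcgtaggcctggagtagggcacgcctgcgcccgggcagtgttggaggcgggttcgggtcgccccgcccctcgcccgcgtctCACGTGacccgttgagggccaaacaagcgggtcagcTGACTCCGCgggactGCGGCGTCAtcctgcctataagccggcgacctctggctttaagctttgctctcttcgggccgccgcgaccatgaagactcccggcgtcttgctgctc
Ctsl: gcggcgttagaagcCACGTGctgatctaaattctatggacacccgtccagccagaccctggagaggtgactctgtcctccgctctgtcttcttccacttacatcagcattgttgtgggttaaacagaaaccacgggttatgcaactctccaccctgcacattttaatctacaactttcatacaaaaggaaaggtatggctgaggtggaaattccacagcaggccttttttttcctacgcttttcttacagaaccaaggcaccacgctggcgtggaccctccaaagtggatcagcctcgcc
Ctsa: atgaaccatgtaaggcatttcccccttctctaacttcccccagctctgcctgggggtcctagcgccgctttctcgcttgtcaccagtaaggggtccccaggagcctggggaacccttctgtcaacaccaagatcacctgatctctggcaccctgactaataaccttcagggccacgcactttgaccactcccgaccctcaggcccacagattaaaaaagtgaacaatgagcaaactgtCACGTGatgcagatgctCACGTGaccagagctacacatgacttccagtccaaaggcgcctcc
Ctsg: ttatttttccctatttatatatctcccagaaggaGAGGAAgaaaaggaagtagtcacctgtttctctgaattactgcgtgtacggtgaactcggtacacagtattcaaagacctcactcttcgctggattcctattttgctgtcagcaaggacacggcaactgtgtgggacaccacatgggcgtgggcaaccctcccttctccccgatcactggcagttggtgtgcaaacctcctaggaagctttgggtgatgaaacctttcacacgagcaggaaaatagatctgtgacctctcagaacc

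Matches to CACGTG stood in 3 of the 9 windows listed for 8 cathepsins, those of Ctsd, Ctsl and Ctsa printed above, and in 7.15% of all 32851 promoter windows. In Ctsd the E-box matches began at positions -245 and -98 from the start site, and 2 matches to TGACNNNGC began at -62 and -47. The Ctsl match began at -236, near the far edge of its window. The bases before the annotated Ctsl start site end in a pyrimidine-rich run and AG, as those before an internal exon do. Whether transcription starts in that window was not tested. In Ctsa the matches began at -12 and 6, on either side of the start site. Ctsg held no E-box match and a single GAGGAA at -216. TGACNNNGC was found in 2 of the 9 windows, those of Ctsd and Ctsz, and in 12.4% of all windows, while GAGGAA was found in 4 of the 9 (Ctsc, Ctsg, Ctsk and Ctss) and in 28.3% of all. TGANTCA was in none of the 9 windows, against 7.81% of all. No match overlapped another, and a match is a run of letters and not evidence that a factor binds there.

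RNA of most of the cathepsins was found in these cells. In every library 7 of the 10 reached 1 FPKM, against 20.1% of all genes, and the other 3, Ctss, Ctsk and Ctsh, stayed under 1 FPKM in every library. The 10 genes together summed to 1030.5 FPKM in library 01, 989 in library 02, 697 in library 21 and 711 in library 22. That sum was 0.305%, 0.299%, 0.207% and 0.213% of all FPKM in those libraries.

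The aspartic protease gene Ctsd, whose product degrades much of the protein delivered to lysosomes, was among the highest. Ctsd (ENSMUSG00000007891, chromosome 7, 141929648 to 141941775 on the minus strand as deposited, with no build named) reached 309.65 and 297.43 FPKM in libraries 01 and 02, and 168.9 and 165.0 FPKM in libraries 21 and 22. These values rest on 8983, 9118, 4919 and 4986 counts. Libraries 01 and 02 were both higher than libraries 21 and 22, and their Poisson 95% intervals did not overlap, with bounds of 303.3 to 316.1 and 291.4 to 303.6 FPKM in libraries 01 and 02 and of 164.2 to 173.7 and 160.5 to 169.7 FPKM in libraries 21 and 22. The highest library, 01, was 1.88-fold above the lowest, 22 (exact 95% interval of the ratio 1.81 to 1.94, counting error only). Between libraries 01 and 02 the ratio was 1.04 (1.01 to 1.07), and between 21 and 22 it was 1.02 (0.984 to 1.065).

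Of the cysteine proteases, Ctsl showed nearly the same pattern as Ctsd. Ctsl (ENSMUSG00000021477, chromosome 13, 64507151 to 64518704 on the minus strand as deposited) encodes cathepsin L, an endopeptidase of lysosomes and of some secretory granules. Its FPKM came to 192 and 188 in libraries 01 and 02, from 15386 and 15877 counts, and to 99.9 and 103 in libraries 21 and 22, from 8029 and 8584 counts. Library 01 was 1.92-fold above library 21 (1.87 to 1.98), and 01 and 02 again lay clear of 21 and 22. The ratio of Ctsd to Ctsl FPKM stayed within 1.59 to 1.69 over the libraries with the deposited gene sizes, and within 0.532 to 0.568 with the length of the shortest principal transcript, an annotated length described further on.

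Ctsz, Ctsb and Ctsc completed the cysteine proteases that were well expressed. Ctsz (ENSMUSG00000016256, chromosome 2, 174269286 to 174280832 on the minus strand as deposited) encodes cathepsin Z, also called X, a carboxypeptidase. Its levels were 325 and 306 FPKM in libraries 01 and 02 and 281 and 298 FPKM in libraries 21 and 22, so it was the highest cathepsin by deposited FPKM in each library. Library 01 was 1.16-fold above library 21 (1.11 to 1.20), and the intervals of libraries 02 and 22 overlapped. Ctsz was the steadiest of the 7, and its ratio to Ctsd was 1.05, 1.03, 1.66 and 1.80 in libraries 01, 02, 21 and 22 with the deposited sizes and 0.949, 0.930, 1.5 and 1.63 with the shortest principal transcripts.

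Ctsb (ENSMUSG00000021939, chromosome 14, 63359911 to 63383372 on the plus strand) encodes cathepsin B, an enzyme with both endopeptidase and peptidyl-dipeptidase activity. The level of Ctsb was intermediate. In libraries 01 and 02 it reached 86.65 and 85.5 FPKM, and in libraries 21 and 22 it reached 66.1 and 64.25 FPKM. Library 01 was 1.35-fold above library 22 (1.30 to 1.40). Ctsc (ENSMUSG00000030560, chromosome 7, 87927293 to 87960096 on the plus strand), whose product cathepsin C trims dipeptides from granule serine proteases and so activates them, had 60.1 and 58.9 FPKM in libraries 01 and 02 and 44.2 and 47.1 FPKM in libraries 21 and 22. Its highest library, 01, stood 1.36-fold above its lowest, 21 (1.30 to 1.42). For both genes libraries 01 and 02 were high and libraries 21 and 22 low, with intervals that did not overlap between those libraries.

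The serine enzymes were lower. Ctsg (ENSMUSG00000040314, chromosome 14, 56337338 to 56340031 on the minus strand as deposited) encodes cathepsin G, a protease stored in the granules of neutrophils and mast cells. It had 38.6 and 36.97 FPKM in libraries 01 and 02 and 23.5 and 19.6 FPKM in libraries 21 and 22, from 492, 498, 301 and 260 counts. Library 01 was 1.97-fold above library 22 (1.69 to 2.30), an interval wider than those of Ctsd and Ctsl because the counts are fewer. Ctsa (ENSMUSG00000017760, chromosome 2, 164674793 to 164682952 on the plus strand) encodes cathepsin A, a carboxypeptidase that also protects neuraminidase 1 and beta-galactosidase in a lysosomal complex. Ctsa was at 18.3 and 16.7 FPKM in libraries 01 and 02 and at 12.4 and 13.15 FPKM in libraries 21 and 22. Its highest library, 01, was 1.47-fold above its lowest, 21 (1.34 to 1.62).

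The remaining members were at or near 0. Ctss (ENSMUSG00000038642, chromosome 3), which encodes cathepsin S of antigen-presenting cells, had 7, 8, 12 and 17 counts in libraries 01, 02, 21 and 22, or 0.42, 0.45, 0.71 and 0.97 FPKM. The intervals of all its libraries overlapped, and the ratio of library 22 to library 01 was 2.33 (0.919 to 6.65). Ctsk (ENSMUSG00000028111, chromosome 3), the collagen-degrading cathepsin of osteoclasts, had no count in libraries 01 and 02 and 2 counts in each of libraries 21 and 22. Ctsh (ENSMUSG00000032359, chromosome 9), which encodes an aminopeptidase, had 2 counts in library 21 and none elsewhere. A floor of 3 counts, set for a count of 0, equals up to 0.161 FPKM of Ctsk and 0.054 FPKM of Ctsh, and the exact intervals of those zeros reach 0.198 and 0.0665 FPKM in library 01.

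**Figure D1:**
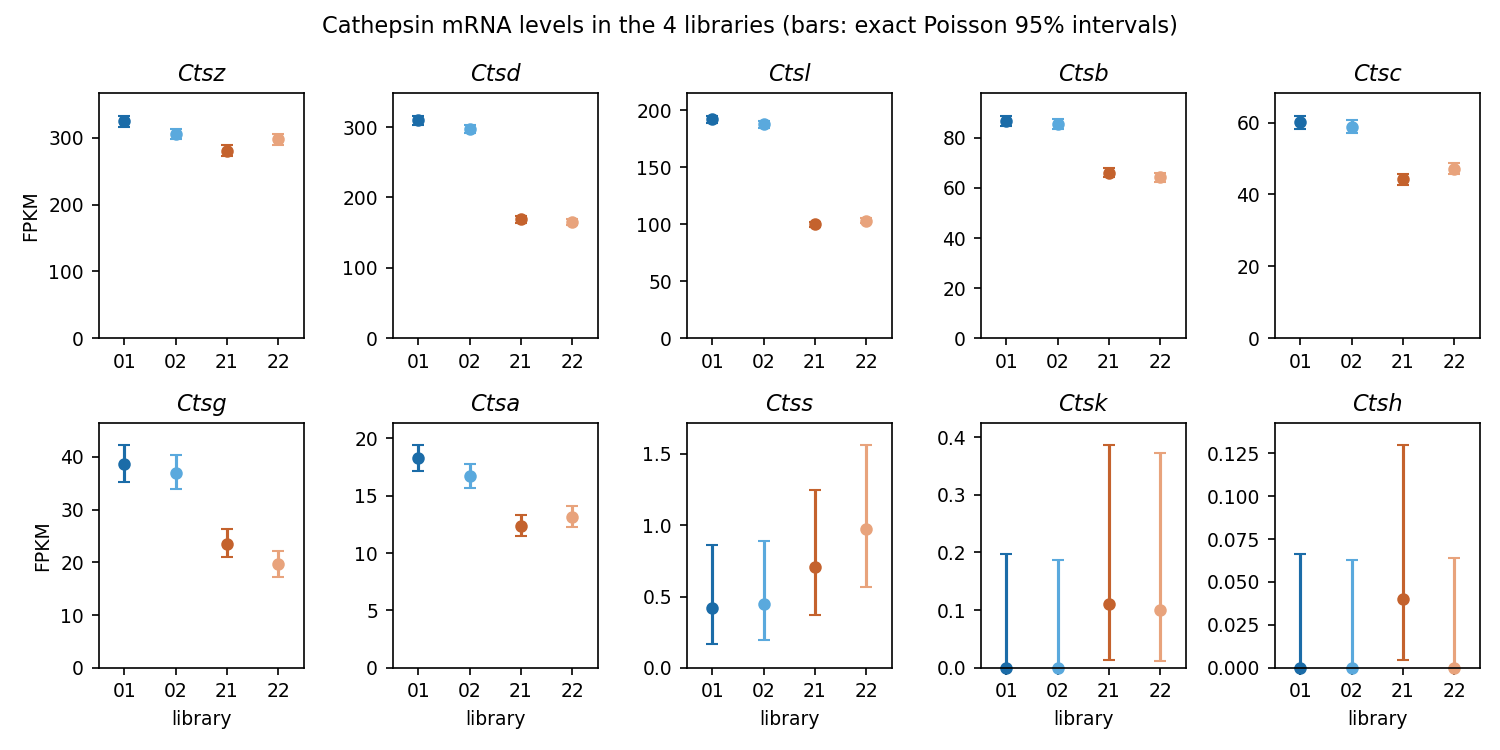
Level of each cathepsin in FPKM (vertical axes, each starting at 0 with its own scale) in libraries 01, 02, 21 and 22, with exact Poisson 95% intervals as bars. Ctsd stands at 309.65, 297.43, 168.9 and 165.0 FPKM and Ctsl at 192, 188, 99.9 and 103 FPKM in libraries 01, 02, 21 and 22, Ctsz varies least of the 7 detected genes, and Ctss, Ctsk and Ctsh stay under 1 FPKM.

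All 7 detected cathepsins had libraries 01 and 02 as their highest pair of libraries. For Ctsz that pair was not resolved, since library 02 was 1.03-fold above library 22 (0.989 to 1.066). Its ratios of 01 to 02 and of 22 to 21 were larger, both 1.06, with separate intervals. For the others both 01 and 02 lay clear of 21 and 22. Over all 11874 genes averaging at least 1 FPKM, 31.2% had that pair highest and 31.1% had libraries 21 and 22 highest, while each of the other 4 pairs took 9.01% to 10.1%. Among the 2921 genes averaging at least 20 FPKM, 27.6% had libraries 01 and 02 highest, as did all 6 cathepsins above that level. The highest and lowest libraries had separate Poisson intervals for 7 of 7 detected cathepsins, against 56.8% of genes averaging at least 1 FPKM. At an average of 20 FPKM or above that share was 75.9%, since deeper counts give narrower intervals, and 6 of 6 cathepsins passed there.

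The size of the spread differed widely among the members. The log2 range, taken on log2(FPKM + 1) as the highest less the lowest library, was 0.94 for Ctsg, 0.94 for Ctsl, 0.90 for Ctsd, 0.52 for Ctsa, 0.44 for Ctsc, 0.43 for Ctsb and 0.21 for Ctsz. Their median was 0.52, beside 0.27 over all genes averaging at least 1 FPKM. A range of 0.5 or more was reached by 4 of the 7, against 17.3% of genes. With libraries 01 and 02 highest as well, the count was again 4 of 7, against 7.13% of genes. Ctsa lay just inside that threshold and Ctsc just outside it.

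Against the more abundant genes, a set with a floor on level and no ceiling, all of the members there but Ctsz varied more than most. Of 2921 genes averaging at least 20 FPKM, 8.76% had a range of 0.5 or more, as did 3 of the 6 cathepsins there. Ctsd, Ctsl and Ctsg varied more than 98.6%, 98.7% and 98.7% of those genes, and Ctsb and Ctsc more than 85.8% and 86.7%. Ctsz varied more than 45.2%, close to the middle of the distribution.

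**Figure D2:**
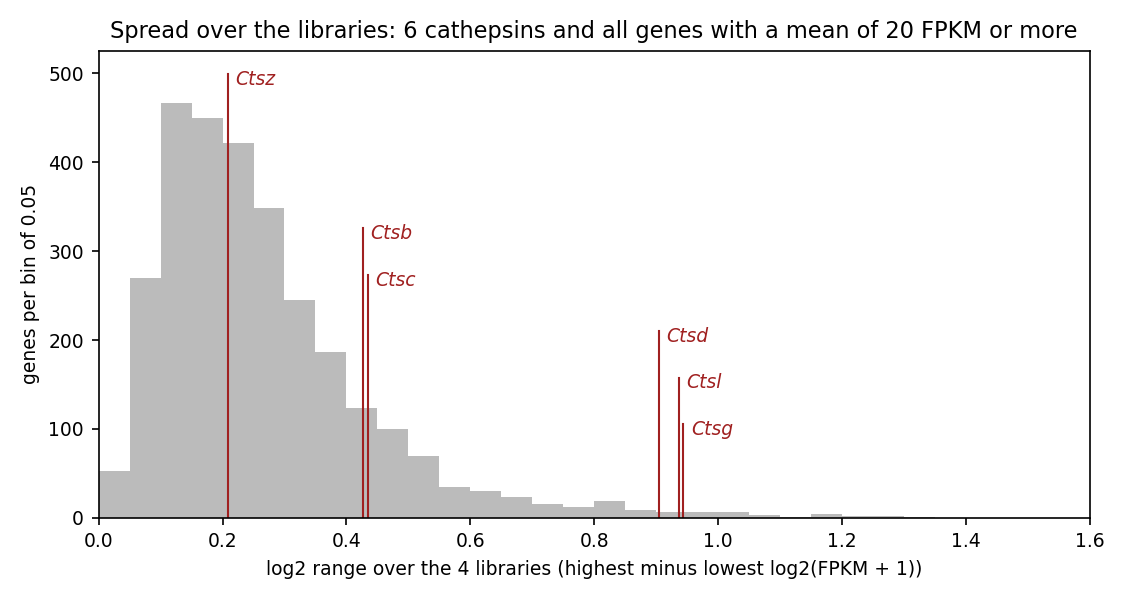
Histogram of the log2 range over the 4 libraries (horizontal axis, shown up to 1.6) for the 2921 genes averaging at least 20 FPKM (vertical axis, genes per bin), with red lines at the 6 cathepsins of that level. Ctsd, Ctsl and Ctsg lie together in the thin upper tail at 0.90 to 0.94, Ctsb and Ctsc at 0.43 and 0.44, and Ctsz at 0.21 within the bulk.

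The makeup of the cathepsin mRNA pool, taken first with the deposited gene sizes, also differed between libraries. Ctsz made up 31.5% and 30.9% of the summed cathepsin FPKM in libraries 01 and 02, and 40.3% and 41.9% in libraries 21 and 22. Ctsd took about equal shares of 30.05% and 30.07% in libraries 01 and 02, and 24.25% and 23.2% in libraries 21 and 22. Ctsl took 18.65% and 18.97% in libraries 01 and 02 and 14.3% and 14.5% in libraries 21 and 22. Ctsg took 3.75% and 3.74% in libraries 01 and 02 and 3.38% and 2.76% in libraries 21 and 22. The shares of Ctsb, Ctsc and Ctsa ran within 8.41% to 9.495%, 5.83% to 6.63% and 1.69% to 1.85%. With the shortest principal transcripts Ctsl took the largest share, 39.2%, 39.6%, 32.1% and 32.3% in libraries 01, 02, 21 and 22. On that scale Ctsz took 20.1%, 19.6%, 27.4% and 28.4%, and Ctsd 21.2%, 21.1%, 18.2% and 17.4%.

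Within the family the profiles formed distances of different size. The distance is the Euclidean distance between log2(FPKM + 1) profiles over the 4 libraries after each gene's own mean is taken off. It was 0.069 between Ctsd and Ctsl, 0.17 between Ctsd and Ctsg, 0.24 between Ctsg and Ctsl, and 0.083 to 0.12 among Ctsa, Ctsb and Ctsc. Ctsz lay 0.26 to 0.30 from Ctsa, Ctsb and Ctsc and 0.71 to 0.78 from Ctsd, Ctsg and Ctsl.

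Among all genes averaging at least 20 FPKM, the nearest to Ctsd were Esd, which encodes esterase D, at a distance of 0.024, the phosphatase gene Ptpn6 at 0.043, Ubtd1 at 0.061, the ferritin light chain gene Ftl1 at 0.061 and Ctsl at 0.069. The nearest to Ctsl were Ctsd at 0.069, Ptpn6 at 0.070, the pseudogene Gm11427 at 0.075, the sulfiredoxin gene Srxn1 at 0.076 and Egln3, which encodes a prolyl hydroxylase of hypoxia-inducible factors, at 0.078. As an example, Esd read 128 and 122 FPKM in libraries 01 and 02 and 70.1 and 69.1 FPKM in libraries 21 and 22. Within a distance of 0.1 there were 14 genes around Ctsd and 8 around Ctsl. Over 4 libraries such likeness is a description and carries no test.

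The order of levels among cathepsins depended on the gene length used. Deposited FPKM divides by the summed length of all annotated exons, which for Ctsl is 6489 bases, although its annotated principal transcripts in GENCODE M21 run from 1971 to 6168 bases. By deposited FPKM the medians over the libraries ran Ctsz 301.6, Ctsd 233, Ctsl 145, Ctsb 75.8, Ctsc 53.0, Ctsg 30.2 and Ctsa 14.9. With the length of the shortest principal transcript instead, chosen after the data were seen, Ctsl came first at a median of 478 FPKM, ahead of Ctsz at 302 and Ctsd at 258, and Ctsc at 123 passed Ctsb at 96.7. Ctsg at 31.2 and Ctsa at 19.3 kept the last places of the 7. Neighbours in the order are therefore not separated by these data where their lengths are in doubt. The FPKM ratio of a single gene between libraries is not touched, since the same length divides all 4. Whether the libraries used the same transcripts of a gene was not examined. Ctsz and Ctsd overlapped in library 02, where their intervals in deposited FPKM were 297.7 to 313.6 and 291.4 to 303.6. In the other libraries Ctsz lay above Ctsd, barely in library 01 (316.3 to 333.1 against 303.3 to 316.1 FPKM) and clearly in library 21 (273.0 to 288.6 against 164.2 to 173.7 FPKM). With the shortest principal transcripts that order turned in libraries 01 and 02, where Ctsz was at 325 and 306 FPKM and Ctsd at 342 and 329 FPKM.

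**Figure D3:**
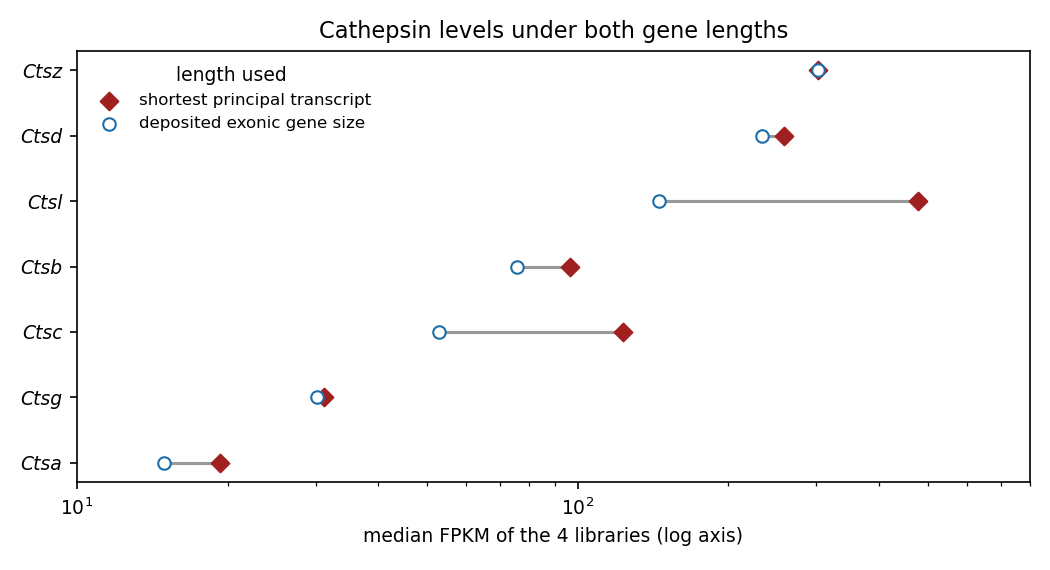
Median FPKM of the 4 libraries (horizontal log axis) for the 7 detected cathepsins, with red diamonds for the length of the shortest GENCODE M21 principal transcript and open blue circles for the deposited exonic gene size. Ctsl lies at 478 FPKM with the principal transcript, against 145 with the deposited size, and Ctsc at 123 against 53.0, while Ctsz lies at 302 with both.

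Neighbouring genes can share reads with some cathepsins. The span of Gm49369, on the same strand, covers 6757 bases of the Ctsd locus, and 69.8% of the 100-base stretches of Ctsd transcripts were found in no other gene. Gm49369 was listed at 0 counts in every library, and the sources used here do not say how reads common to both were counted. For Ctsl 95.5% of stretches were unique, with the rest shared with Gm49230, which also had no count. The other 8 cathepsins were unique throughout. Ctsb overlaps Fdft1 on the opposite strand over 774 bases, and Fdft1 had 416 to 594 counts over its whole length, and Ctsa overlaps Pltp and Neurl2, which had at most 21.

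Of 14 other genes of the family, comprising the remaining cathepsins and legumain, 3 were detected in every library, near the 20.1% of all genes. No count was found for 9 of the 14. Legumain, encoded by Lgmn, cleaves the single chains of cathepsins B, H and L in lysosomes. Lgmn was at 66.1, 61.5, 55.15 and 58.7 FPKM in libraries 01, 02, 21 and 22. Ctse, which encodes an aspartic protease of endosomes, ran the other way from its relative Ctsd, at 10.15, 9.65, 16.55 and 17.45 FPKM in libraries 01, 02, 21 and 22. Its log2 range was 0.79 and library 22 was 1.81-fold above library 02 (1.60 to 2.05). Ctso was steady at 1.42 to 1.63 FPKM, and Ctsw and Ctsf had at most 5 counts in any library. The 9 without a count were Ctsll3 and the placental cathepsin genes Ctsj, Ctsm, Ctsq, Ctsr, Cts3, Cts6, Cts7 and Cts8.

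Inhibitors of cathepsins were abundant, with 9 of 14 detected in every library, against 20.1% of all genes. Their summed levels were 1115 FPKM in library 01, 1064 in library 02, 851 in library 21 and 855 in library 22. The highest was Cstb, the gene of cystatin B, an inhibitor in the cytosol of cathepsins B, H and L. Cstb was at 299.97, 289.3, 233 and 240.04 FPKM in libraries 01, 02, 21 and 22. Cst7 encodes cystatin F, an inhibitor inside endosomes and lysosomes that acts on cathepsin C. It was at 245, 224, 175 and 173 FPKM in libraries 01, 02, 21 and 22. Cst3, the gene of the secreted cystatin C, was steady at 103 to 114 FPKM, with a log2 range of 0.15.

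Serpinb1a and Slpi had the widest ranges in that list, while Serpinb6a, also a serine protease inhibitor gene, had a range of 0.22. Serpinb1a, whose product blocks cathepsin G and neutrophil elastase, was at 231, 226, 106 and 111 FPKM in libraries 01, 02, 21 and 22. Its log2 range was 1.12, and library 01 was 2.18-fold above library 21 (2.09 to 2.28). Slpi, which encodes a secreted inhibitor of cathepsin G and elastase, was at 78.8, 73.1, 39.1 and 38.45 FPKM in libraries 01, 02, 21 and 22, a range of 1.02. Libraries 01 and 02 were thus the high ones for Ctsg, Serpinb1a and Slpi. Ctla2a, whose product resembles the propeptide of cathepsin L and inhibits that enzyme, went against Ctsl, at 56.9, 56.1, 76.6 and 79.1 FPKM in libraries 01, 02, 21 and 22. A range of 0.5 or more was reached by 3 of the 9 inhibitors averaging at least 1 FPKM, Serpinb1a, Slpi and Serpina3g, against 17.3% of genes. For 5 of the 9 the highest pair was 01 and 02, and for 2, Ctla2a and Serpina3g, it was 21 and 22, against 31.2% and 31.1% of genes.

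The sorting and partner genes were all detected, 14 of 14, against 20.1% of genes, and 2 of them reached a range of 0.5, near the 17.3% of genes that did. Libraries 01 and 02 were highest for 9 of the 14 and libraries 21 and 22 for 2, against 31.2% and 31.1% of genes. Psap, the precursor of the saposins and a binding partner of cathepsin D, was at 218, 214, 176 and 179 FPKM in libraries 01, 02, 21 and 22. Its log2 range of 0.30 was a fraction of that of Ctsd, and the ratio of Ctsd to Psap was 1.42, 1.39, 0.959 and 0.921 in the order of the libraries. Grn, which encodes progranulin, the precursor of lysosomal granulins, was at 132, 128, 90.7 and 87.8 FPKM in libraries 01, 02, 21 and 22, a range of 0.59.

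Of the sorting receptors, M6pr, the cation-dependent mannose 6-phosphate receptor gene, was at 65.3, 62.3, 54.2 and 56.6 FPKM in libraries 01, 02, 21 and 22. Scarb2, which encodes the receptor that carries glucocerebrosidase to lysosomes, was at 25.0 and 24.6 FPKM in libraries 01 and 02 and at 19.97 FPKM in both libraries 21 and 22. Gnptab, whose product starts the mannose 6-phosphate tag, was steadier, at 14.3, 15.2, 13.8 and 13.0 FPKM in the order of the libraries. Sort1, the sortilin gene, had the widest range of this list, 0.64, and the opposite order, at 2.85, 3.64, 4.63 and 5.02 FPKM in libraries 01, 02, 21 and 22.

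Of 6 transcription factors known for lysosomal genes and averaging at least 1 FPKM, none reached a range of 0.5, a count too small to set apart from the 17.3% of genes that did. Usf1, a factor that binds E-boxes, was at 17.65, 16.5, 20.2 and 20.25 FPKM in libraries 01, 02, 21 and 22. Its relative Usf2 was at 9.87, 8.74, 10.2 and 11.8 FPKM in the order of the libraries. Mitf was at 7.81, 8.31, 8.18 and 9.46 FPKM, and Zkscan3, a repressor of autophagy and lysosomal genes, at 7.23, 7.60, 5.67 and 6.50 FPKM. Tfe3 was at 5.55, 5.94, 4.63 and 4.35 FPKM in libraries 01, 02, 21 and 22. Tfeb, the factor best known for the lysosomal gene network, was low at 2.13, 2.96, 2.32 and 1.84 FPKM and had the widest range of this list, 0.48. Activity of these factors, which depends largely on their move to the nucleus, was not measured.

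**Figure D4:**
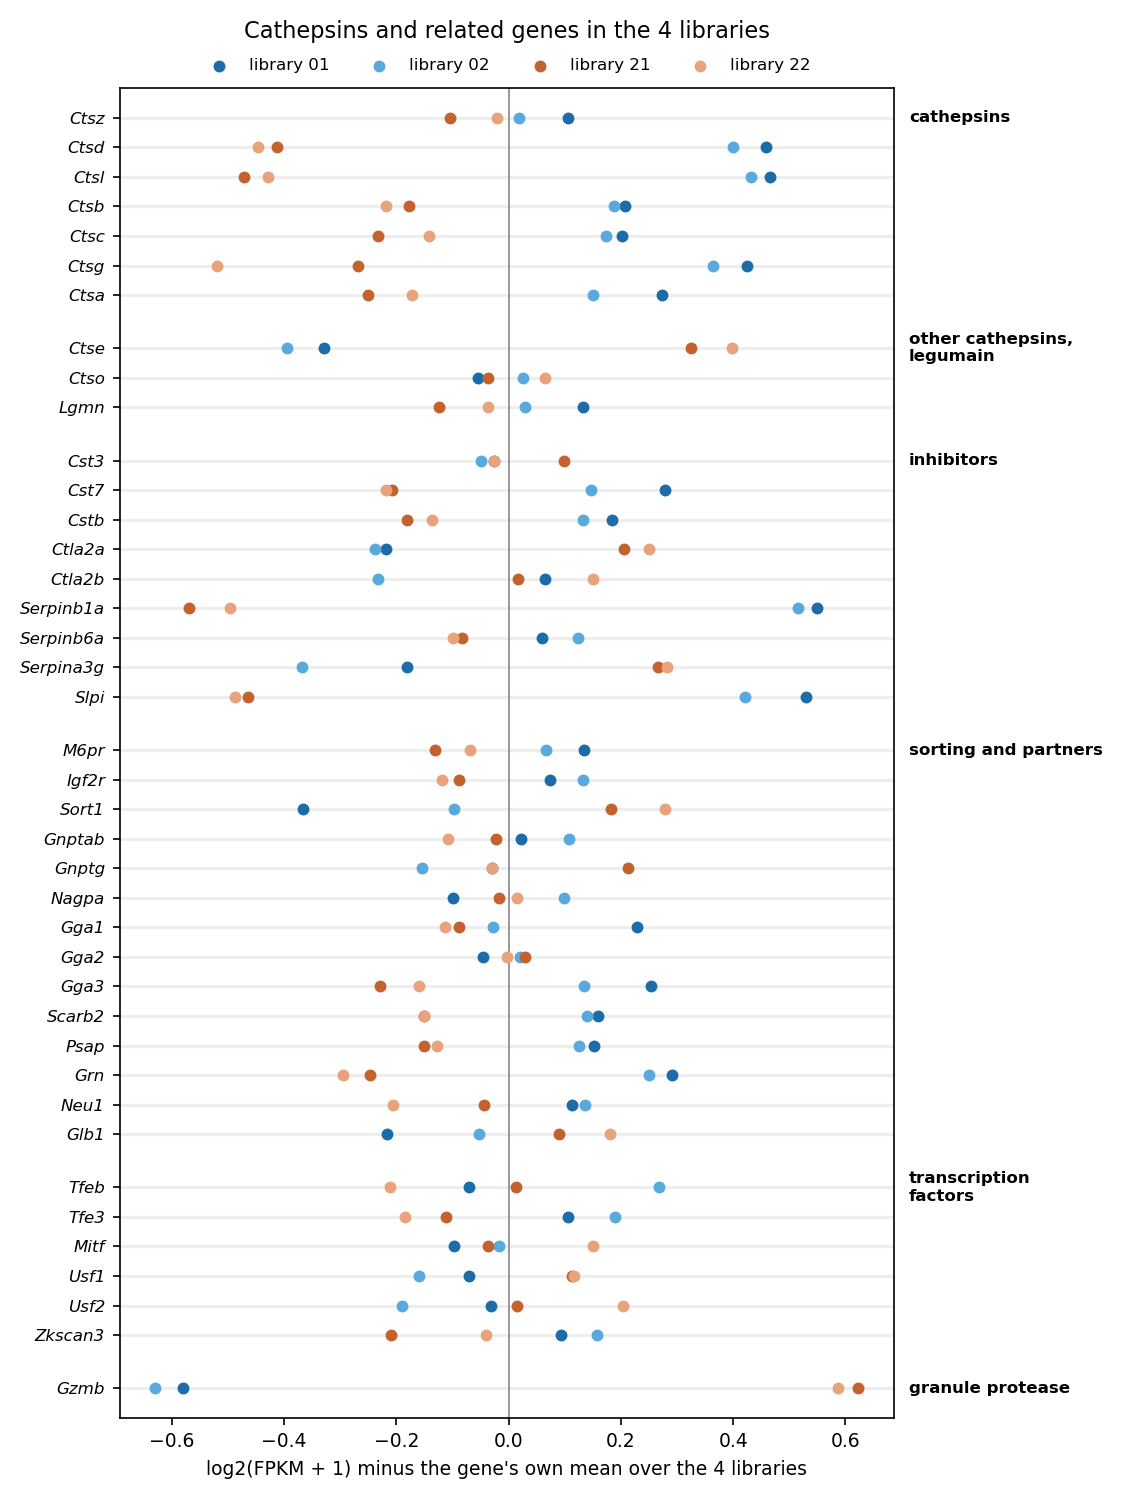
Level of each gene in each library as log2(FPKM + 1) minus the gene's own mean over the 4 libraries (horizontal axis), for genes averaging at least 1 FPKM, grouped by role, with a coloured point per library. Ctsd, Ctsl, Ctsg, Serpinb1a and Slpi show libraries 01 and 02 to the right and 21 and 22 to the left by similar amounts, and Ctse and Gzmb show the reverse.

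Ctsg was set beside the granule proteases that cathepsin C activates and beside markers of the cells that store it. Of 12 granule serine proteases, 2 were detected in every library, Ctsg and Gzmb, near the 20.1% of all genes. Gzmb, the granzyme B gene, had the widest range, 1.25, and the reverse order of Ctsg, at 31.4, 30.3, 73.7 and 71.9 FPKM in libraries 01, 02, 21 and 22. Mcpt2 stood near 1 FPKM on 11 to 15 counts and Mcpt8 under it on 4 to 11 counts, and these mast cell protease genes are close relatives whose reads can be misassigned. Elane, Gzma, Mcpt1, Mcpt4 and Tpsb2 had no count.

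Neutrophil markers were close to absent. All 9, Elane, Mpo, S100a9, Ly6g, Ltf and Ngp among them with no count, summed to at most 0.57 FPKM in any library. Of 10 mast cell markers 4 reached 1 FPKM throughout, against 20.1% of all genes. The mast cell list summed to 692, 677.5, 585 and 605 FPKM in libraries 01, 02, 21 and 22. Cpa3, the mast cell carboxypeptidase gene, was at 333, 325, 229 and 247 FPKM in libraries 01, 02, 21 and 22. Gata2 was at 173, 165, 131 and 135 FPKM in libraries 01, 02, 21 and 22, while Srgn, the gene of the granule proteoglycan serglycin, was level at 122 to 127 FPKM. Kit, the stem cell factor receptor gene, ran the other way, at 58.9, 64.6, 100.7 and 100.25 FPKM in libraries 01, 02, 21 and 22. Fcer1a, Tpsb2 and Mcpt4 had no count. The other markers of the list, Ms4a2, Hdc and Cma1, were under 1 FPKM in every library. In libraries 01, 02, 21 and 22 Ms4a2 had 4, 13, 9 and 8 counts and Hdc 1, 8, 13 and 11. Cma1 had 2, 3, 0 and 0. The part of any such cells in the Ctsg values was not tested.

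Macrophage markers did not move as one. Of 12 macrophage markers 4 were detected in every library, against 20.1% of all genes. The list summed to 269.5 and 272 FPKM in libraries 01 and 02 and 136 in each of libraries 21 and 22. Most of that sum was Adgre1, at 218, 220.5, 97.7 and 96.25 FPKM in libraries 01, 02, 21 and 22, and the lysosomal protein gene Cd68 was at 25.3, 25.5, 11.7 and 13.25 FPKM. These 2 were the markers of the list with a range of 0.5 or more among those averaging at least 1 FPKM. Spi1, which encodes the blood cell factor PU.1, was level at 21.5 to 22.5 FPKM, and the libraries' intervals overlapped for Cd14. Lyz2, the lysozyme gene, leaned the other way, at 0.62, 0.47, 1.23 and 1.06 FPKM. Its counts were 10, 8, 20 and 18 in the order of the libraries, and the intervals of the single libraries overlapped. The ratio of its highest library, 21, to its lowest, 02, was 2.63 (1.11 to 6.91). Cx3cr1 was highest in library 21 at 0.16 FPKM, on 9 counts. C1qa and C1qb had no count, and Csf1r was at or under 0.15 FPKM. The part of macrophage-like RNA in the cathepsin values was not tested.

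Markers of the cells known for Ctsk and Ctss were mostly missing, as were those genes. Of 7 osteoclast markers only Nfatc1, which many cells use, was detected in every library, at 34.1 to 43.6 FPKM, and Ocstamp, Calcr and Atp6v0d2 had no count. Of 8 dendritic and B cell markers, Cd74, the invariant chain that cathepsin S cleaves, was the sole gene at 1 FPKM or more in every library, at 1.21, 1.37, 3.08 and 2.83 FPKM in libraries 01, 02, 21 and 22. H2-Aa and H2-Ab1 had no count. Fibroblast markers were present, 8 of 10, against 20.1% of all genes. They summed to 544, 562, 501 and 511 FPKM in libraries 01, 02, 21 and 22. The leading ones were Vim, which made up most of each sum, at 296 to 341 FPKM, Fn1 at 119 to 139.9 FPKM and Col1a1 at 25.9 to 29.5 FPKM. Lum had 2 counts in library 01 and none elsewhere, and Pdgfrb ran from 0.53 to 0.88 FPKM. Libraries 01 and 02 were the highest pair for 6 of the 8 and libraries 21 and 22 for 1. That 1 was Dcn, at 20.3, 20.0, 23.1 and 24.1 FPKM in libraries 01, 02, 21 and 22.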

How the data were processed

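RNA of 4 libraries was analysed, each by itself, because the labels put none in a treated or control group. The deposited counts are whole numbers per gene, taken as not normalised since their totals differ between libraries. FPKM stands beside them in the authors' deposited table and matched count, exonic size and summed counts within 0.05% for genes above 10 FPKM. Per the submitters' processing notes, FastQC, HISAT2 and DESeq2 were tools of the study, without versions or roles. The sources used here do not name the counter, build, annotation or strand setting.

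Members and lists were chosen with earlier results of these data known. A gene was detected at 1 FPKM or more. Log2 ranges used a pseudocount of 1, which makes those of low genes smaller. Ranges, pairs and intervals were computed over all genes averaging at least 1 FPKM. Poisson intervals and ratio intervals are exact, at 95%, and cover counting error only, since PCR copies are not independent. The floor is 3 counts in a library. The text names all members, up to 5 leading and the widest-ranging gene of each related list, up to 3 leading markers and those with no count, and the 5 genes nearest to Ctsd and to Ctsl. Other genes were named after their values were seen. All 122 list symbols were found. Promoters came from RefSeq (GRCm38.p6), which listed 8 members, and transcripts from GENCODE M21, which is not known to be the authors' annotation. Functions were checked on simulated counts. Python 3.11.15, numpy 2.4.6, pandas 2.3.3, scipy 1.17.1 and matplotlib 3.10.9 were used.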

Additional observations from a re-analysis of the deposited data

How the results depend on the processing

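Counts of cathepsins were stable over the settings tried. All 7 detected genes were detected at 0.5 FPKM, at 2 FPKM and at 10 counts or more in every library. The count with a log2 range of 0.5 or more was 4 of 7 with a pseudocount of 0.1 and with median-of-ratios size factors. It was 3 with a pseudocount of 5, where Ctsa fell to 0.42. With no filter on low values it was 4 of all 10 members. The share of all genes past that range moved with the pseudocount, to 25.5% at 0.1 and 5.38% at 5. With no filter it was 7.66%, taken over all 55359 genes and not the 11874 averaging at least 1 FPKM. Leaving out each library in turn gave 3 to 4 cathepsins, against 13.1% to 13.6% of genes. The highest pair was 01 and 02 for 7 of 7 with median-of-ratios size factors. With no filter on low values that pair was highest for 7 of all 10 members, and not for Ctss, Ctsk and Ctsh. Intervals at 99% separated the highest from the lowest library for 7 of 7 detected genes.

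Of 49 values of single ranges, 43 moved by less than the counting interval. The other 6 came from leaving out a library, namely Ctsg without 22 (0.69), Ctsz without 01 (0.12) or 21 (0.13), Ctsc without 21 (0.34), Ctsd without 01 (0.85) and Ctsl without 21 (0.89). Part of the 43 was fixed in advance, since leaving out a library that is neither highest nor lowest cannot change a range. Leaving out the highest or lowest can only make it smaller. With the shortest principal transcript as length, chosen after the data were seen, summed cathepsin FPKM became 1613.9 in library 01, 1558.5 in library 02, 1024.7 in library 21 and 1048.9 in library 22, a shift made by the shorter lengths themselves. No paired analysis was possible because the labels give no groups. Counts of 17 or fewer limit Ctss, Ctsk and Ctsh.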
